A study of Mus musculus with 2 samples.

Results

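The KATP channel genes are Abcc8 and Kcnj11, which encode the SUR1 and Kir6.2 subunits of the channel of pancreatic β cells, and Abcc9 and Kcnj8, which encode SUR2 and Kir6.1, the subunits of the channel of vascular smooth muscle. Binding of tagged Rfx6 was denser at the pancreatic pair than at the vascular pair. The deposited 3HA-Rfx6 peaks placed 10 summits in or within 50 kb of Abcc8 and Kcnj11, 8 of them in introns of Abcc8 and 1 of them 219 bp upstream of the start of Kcnj11. At Abcc9 and Kcnj8 there was 1 summit, in intron 31 of Abcc9, far from the start of either gene. These 11 summits came from a list of 23308, and the 4 genes from 22380 protein-coding genes of the GENCODE M1 annotation. A summit, the position of highest signal in a peak, was assigned to a pair when it lay in either gene, between them or within 50 kb of them. Windows built in this way around neighbouring protein-coding genes give the background. Of these, 6.37% had at least the summit density of the pancreatic pair and 69.2% at least that of the vascular pair.

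The cells were Min6b1, an insulin-secreting mouse β cell line, grown in 25 mM glucose. They were transfected with a plasmid (pCMV-Tag2A-3HA-Rfx6) that drives Rfx6 with an HA tag from a CMV promoter, and were collected 2 days later for precipitation of chromatin with the anti-HA antibody 12CA5 and single-end sequencing of 50 bases (ChIP-seq). The control was the same precipitation from Min6b1 cells, and the labels do not say whether those cells received another plasmid. There was 1 library of each kind, so no value has a replicate error, no p-value is given, and the peaks describe Rfx6 supplied from a viral promoter rather than the protein of the cell itself. The 3HA-Rfx6 library kept 33949757 of 49443917 reads and the control 3567375 of 16911298 after duplicate removal. The list gives each peak's reads (median 73 over all peaks) and its fold enrichment over the background (median 8.54). It holds no expression values, so the identity of the cell line could not be checked against marker genes.

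The KATP channel couples metabolism to electrical activity. In the β cell it holds the membrane potential down at low glucose and closes when ATP rises, which opens calcium channels and releases insulin. Kir6 proteins form the potassium pore, and SUR proteins, members of the ABCC family of ABC transporters, surround it and carry the binding sites of sulphonylureas and channel openers. Each SUR gene has a Kir6 gene as its neighbour. Rfx6 belongs to the RFX family, whose winged-helix domain recognises the X-box, a pair of inverted half-sites with a short spacer.

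The sequences below surround the strongest summit by fold enrichment in Abcc8 (intron 10), the summit with the most reads (intron 28), the summit nearest to the start of Abcc8 (intron 3), the single summit at the vascular pair, and the 300 bases before the start of Kcnj11, which hold the summit there. All are from the NCBIM37 (mm9) genome and read along the genes, which are all on the minus strand. Capitals mark the closest matches to the X-box. The X-box was written as GTNACC or GTNGCC, then 0 to 3 bases, then a half-site (AGCAAC or AGTAAC or GGCAAC or GGTAAC), and was searched on both strands.
Abcc8 intron 3, chr7:53430595-53430735, minus strand: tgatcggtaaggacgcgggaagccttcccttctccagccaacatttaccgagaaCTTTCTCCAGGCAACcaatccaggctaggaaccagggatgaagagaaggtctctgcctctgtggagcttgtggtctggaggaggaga
Abcc8 intron 10, chr7:53401219-53401359, minus strand: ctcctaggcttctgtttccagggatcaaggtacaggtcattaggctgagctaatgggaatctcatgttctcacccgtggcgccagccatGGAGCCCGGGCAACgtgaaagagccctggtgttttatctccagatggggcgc
Abcc8 intron 28, chr7:53368891-53369031, minus strand: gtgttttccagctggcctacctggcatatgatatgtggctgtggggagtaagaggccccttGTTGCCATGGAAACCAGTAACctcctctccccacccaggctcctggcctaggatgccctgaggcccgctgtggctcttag
Abcc9 intron 31, chr6:142559149-142559289, minus strand: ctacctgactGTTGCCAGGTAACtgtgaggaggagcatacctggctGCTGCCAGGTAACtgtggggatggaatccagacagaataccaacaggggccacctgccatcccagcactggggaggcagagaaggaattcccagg
Kcnj11, bases before the gene start, chr7:53355608-53355907, minus strand: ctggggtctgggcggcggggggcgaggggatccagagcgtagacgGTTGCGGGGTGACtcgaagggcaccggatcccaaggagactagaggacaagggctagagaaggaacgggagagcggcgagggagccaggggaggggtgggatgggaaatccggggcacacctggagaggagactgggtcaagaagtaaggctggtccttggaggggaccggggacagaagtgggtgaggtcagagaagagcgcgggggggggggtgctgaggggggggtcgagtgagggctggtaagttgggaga
The vascular sequence carries 1 X-box without a mismatch and another with 1 mismatch, close together. The sequence of intron 28 carries overlapping matches with 1 mismatch, those of intron 10 and of Kcnj11 have 1 mismatch each, and that of intron 3 has 2.

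**Figure D1:**
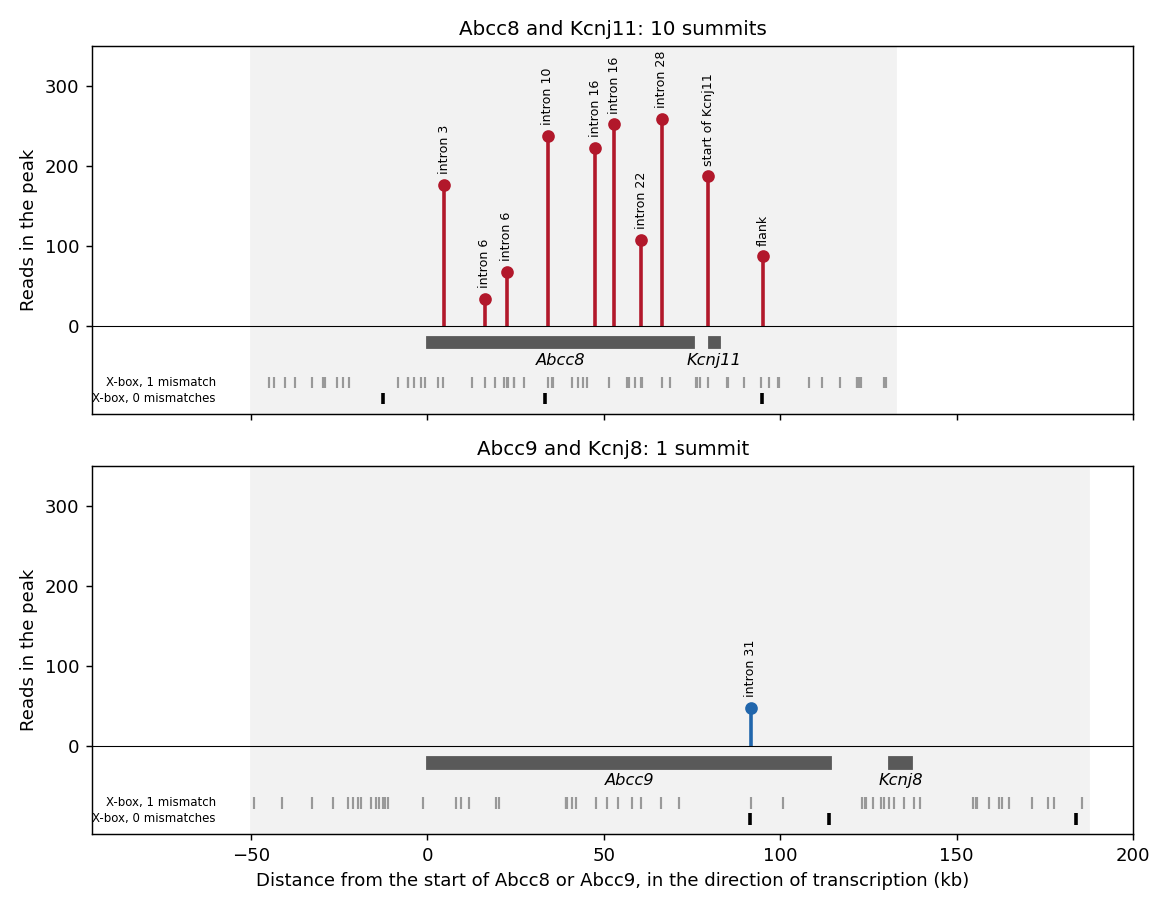
Reads in each peak (vertical axis, count) against the distance of its summit from the start of Abcc8 or Abcc9 in the direction of transcription (horizontal axis, kb), for the pancreatic pair above and the vascular pair below. Shading is the window searched, dark bars are the genes, and ticks under them are X-box matches with 1 mismatch (grey) and with 0 (black). The 10 summits of the pancreatic pair run from 4.74 to 95.2 kb with 34 to 259 reads, and the 1 summit of the vascular pair lies at 91.6 kb with 48 reads. Each window holds 3 exact X-boxes.

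Abcc8 (ENSMUSG00000040136.8) occupies positions 53359893 to 53435403 of chromosome 7, spans 75.5 kb and has 40 exons in the annotated transcript with the most exons, which was used to number introns. Its 8 summits were all intronic and were spread along the gene. The first, in intron 3, lay at 53430665, 4.74 kb downstream of the start, and its peak held 176 reads (95% exact Poisson interval 151 to 204) with a fold enrichment of 28.0. Poisson and binomial intervals given here cover counting error only. Both summits in intron 6, at 53419108 and 53412852, were weaker, with 34 reads (23.5 to 47.5) and a fold enrichment of 4.94, and 68 reads (52.8 to 86.2) and a fold enrichment of 8.0. These were the only peaks of the pair below the median of all peaks by reads, and 98.9% of all peaks held at least as many reads as the first of them.

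The peaks with the most reads were in introns 10, 16 and 28. The summit in intron 10, at 53401289, had 238 reads (209 to 270) and a fold enrichment of 38.84, which 1.24% of all peaks reached. Intron 16 held a pair of summits 5.36 kb apart, at 53387795 with 223 reads (195 to 254) and a fold enrichment of 15.72, and at 53382434 with 252 reads (222 to 285) and a fold enrichment of 10.36. The latter peak was 3467 bp long, a length that 0.382% of all peaks reached, so that its reads were spread over a broad region. The peak of intron 22, with its summit at 53374843, was also long (2158 bp) and had 108 reads (88.6 to 130) with a fold enrichment of 5.65. The summit of intron 28, at 53368961, had the most reads of the pair, 259 (228 to 293), with a fold enrichment of 31.07. The read intervals of the peaks in introns 10, 16 and 28 overlap, so their order by reads is within counting error, whereas each of them lay above the intervals of the peaks in introns 6 and 22.

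The distance of each summit of Abcc8 to the nearest exon was measured. Of the 8, 5 were within 500 bp of an exon (65, 211, 247, 392 and 434 bp), whereas 28.5% of 10600 intronic summits of all protein-coding genes were that close. Of the intron bases of Abcc8 itself, 39.8% lie within 500 bp of an exon, which is the share against which the 62.5% of its summits is read. No interval was computed for this share of only 8 summits, so no departure from 39.8% is claimed. The summits of intron 10, the first of intron 16 and the first of intron 6 were the 3 farther away, at 4808, 3056 and 2181 bp.

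Kcnj11 (ENSMUSG00000070561.2), a gene of 1 exon, lies 4.29 kb downstream of the end of Abcc8, from 53352533 to 53355607 on the same strand. Of the 4 genes it alone had a summit within 1 kb of its start, as had 20.1% of protein-coding genes. Within 10 kb of the start, Abcc8 and Kcnj11 had a summit and Abcc9 and Kcnj8 did not (35.7% of protein-coding genes). That summit, at 53355826, belonged to a peak of 187 reads (161 to 216) with a fold enrichment of 13.65. The peak was 2682 bp long, and 1.65% of all peaks were at least as long. It covered 1009 bp upstream of the gene and 1673 bp of the gene itself, including all 1170 bp of its coding sequence. The 10th summit of the pair lay at 53340238, 15.4 kb downstream of the start of Kcnj11 and outside any protein-coding gene, and its peak held 87 reads (69.7 to 107) with a fold enrichment of 10.12. The other protein-coding genes that reach into the window, Nomo1 and Ush1c, had 0 summits inside them. Nomo1 extends to within about 1.56 kb of the 10th summit, closer than Kcnj11 does.

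Abcc9 (ENSMUSG00000030249.8), at positions 142536382 to 142650794 of chromosome 6, is longer than Abcc8 (114 kb, 41 exons) and held 1 summit. It lay at 142559219, 91.6 kb downstream of the start of Abcc9 and 3715 bp from the nearest exon. Its peak held 48 reads (35.4 to 63.6) with a fold enrichment of 7.3, and 80.2% of all peaks held at least as many reads. Kcnj8 (ENSMUSG00000030247.7), from 142513459 to 142519876, had 0 summits inside it, and the summit in Abcc9 was also the nearest to its start, 39.3 kb upstream. The next summits beyond it were 152 kb away at lower coordinates and 440 kb away at higher ones, gaps that 13.8% and 4.41% of the 23288 gaps between neighbouring summits equalled or exceeded (median 26.1 kb). The other gene of the window, 5330439B14Rik, had 0 summits inside it.

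**Figure D2:**
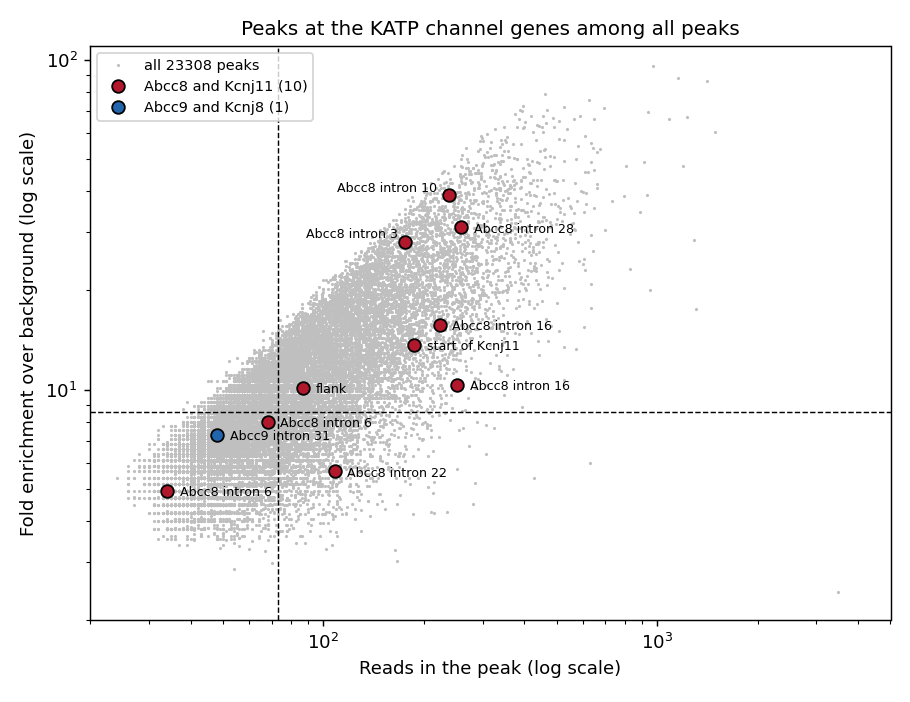
Fold enrichment (vertical axis, log scale) against reads (horizontal axis, log scale) for each of the 23308 peaks (grey), with the 10 peaks of Abcc8 and Kcnj11 in red, the 1 peak of Abcc9 in blue and dashed lines at the medians of 73 reads and of a fold enrichment of 8.54. Of the red points, 8 lie above the median by reads and 7 above that by fold enrichment, and the blue point lies below both.

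Set side by side, the pancreatic window (183 kb, 53302533 to 53485403) held 10 summits (95% exact Poisson interval 4.8 to 18.4) and the vascular window (237 kb, 142463459 to 142700794) 1 (0.0253 to 5.57). Per 100 kb this was 5.47 (2.62 to 10.1) and 0.421 (0.0107 to 2.35). The ratio of the densities was 13.0, with a 95% interval of 1.85 to 563 from the conditional binomial distribution. The interval is wide because the lower count is 1, and it treats summits as independent, which neighbouring peaks of 1 library need not be. The peaks of the pancreatic window held 1632 reads and covered 18550 bp (10.1% of the window), against 48 reads and 1151 bp (0.485%). Of the 10 pancreatic peaks, 7 had a fold enrichment of at least 10, as had 39.6% of all peaks. By reads, 5 of the 10 were among the highest 10% of all peaks, by fold enrichment 3 and by length 4.

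These values were set beside those of all neighbouring pairs of protein-coding genes, with windows built in the same way. At least 1 summit was found in 75.4% of 22358 such windows, which overlap one another, and at least 10 in 7.27%, with a median of 2. A density of at least that of Abcc8 and Kcnj11 occurred in 6.37% of them, and of at least that of Abcc9 and Kcnj8 in 69.2%. Counted as reads in peaks per 100 kb, the pancreatic pair reached 892, which 2.34% of windows equalled or exceeded, and the vascular pair 20.2, with a median of 86.5 over all windows. The pancreatic pair therefore stood in the upper part of the range, and the vascular pair below its median but not at its end, since 24.6% of windows held 0 summits. Chromosome 7 held 9.58 peaks per Mb and chromosome 6 held 7.64.

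**Figure D3:**
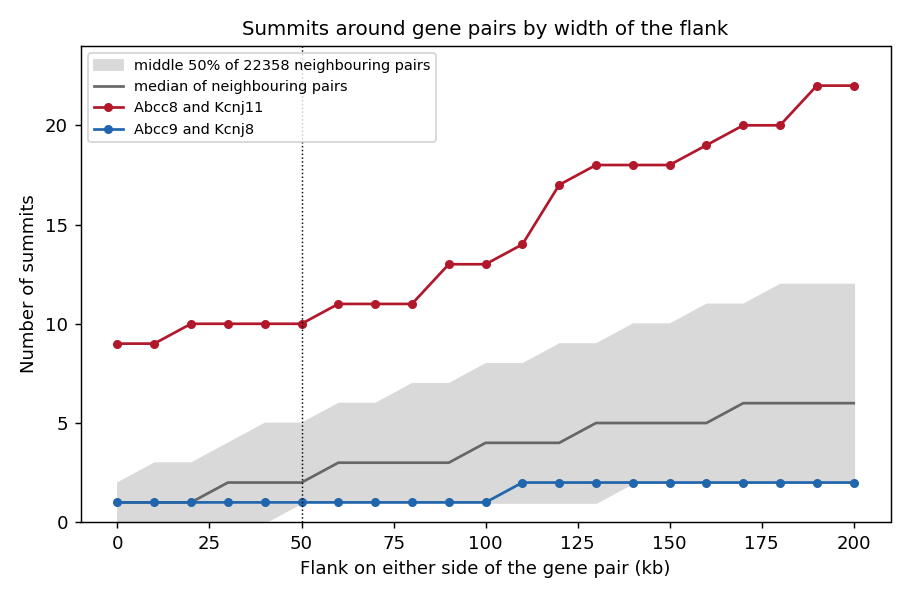
Number of summits (vertical axis) in and around each gene pair as the flank on either side grows from 0 to 200 kb (horizontal axis), with the median (grey line) and the middle 50% (grey band) of 22358 neighbouring pairs, and a dotted line at the 50 kb used. The pancreatic pair rises from 9 summits to 22, the vascular pair from 1 to 2, and the median from 1 to 6.

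The summits of the pancreatic pair were concentrated between the start of Abcc8 and the end of Kcnj11, with 8 inside Abcc8 and 0 inside Kcnj11. With no flank, 9 of the 10 remained, and between flanks of 20 and 50 kb the count stayed at 10. Outside the window the next summits were 83.5 kb past the end of Kcnj11 and 58.5 kb upstream of Abcc8, and with 100 kb on either side there were 13. At the vascular pair the count was 1 with each flank from 0 to 100 kb.

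The number of summits inside Abcc8 was high for a gene of its length. Of all protein-coding genes, 31.3% had a summit inside them and 0.849% had at least 8. Among the 1514 genes within 1.25 times its length, the median was 1 and 1.32% had at least 8. The 1 summit of Abcc9 equalled the median of the 1141 genes within 1.25 times its own length, of which 60.4% had at least 1. Of 19128 protein-coding genes no longer than Abcc8, 11 others had at least 8 summits inside them. Those with the most were Fam38a, which encodes a mechanically gated channel, and Rfx6 itself, the gene of the transfected factor, with 14 each, then Plch2 with 11, Bahcc1 and Dgkz with 9, and Dagla, Gnaz, Rap1gap, Rtdr1 and Rtn4rl1 with 8. The plasmid carries Rfx6 sequence, and its reads were not separated from those of the Rfx6 gene. The part of plasmid reads in the 14 summits of that gene was not tested. Gnaz and Rtdr1 overlap and share summits. By its highest fold enrichment, Abcc8 ranked 4th among these 12 genes, below Dgkz (56.96), Dagla (55.55) and Plch2 (48.95).

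**Figure D4:**
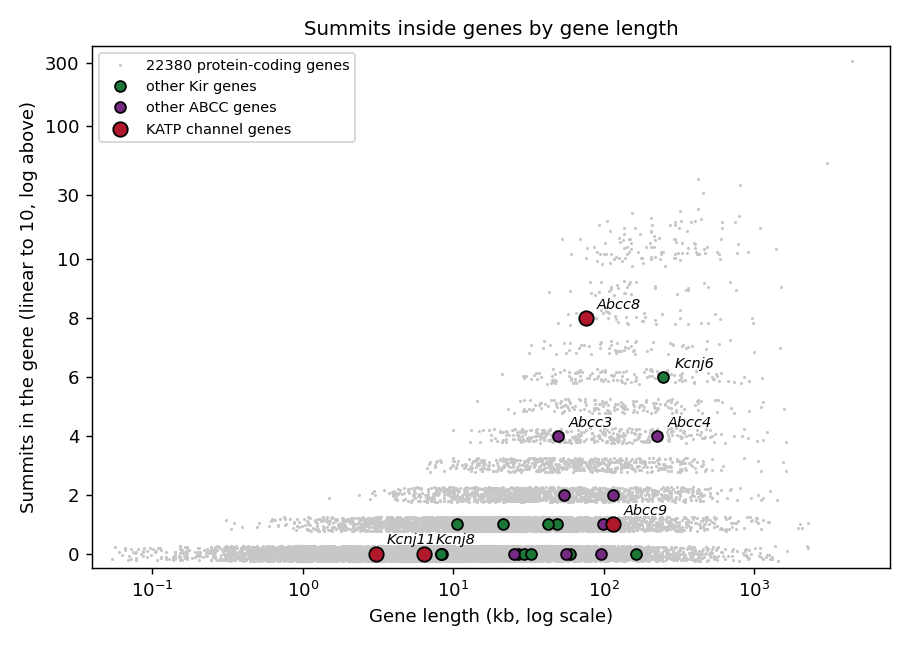
Summits inside each gene (vertical axis, linear to 10 and logarithmic above) against gene length (horizontal axis, kb, log scale) for 22380 protein-coding genes, whose grey points are spread vertically by a small random amount to separate them. Abcc8 (75.5 kb, 8 summits) lies above the other ABCC genes (purple, at most 4) and the Kir genes (green, at most 6), whereas Abcc9 (114 kb) has 1 and Kcnj11 and Kcnj8 have 0.

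The relatives of the 4 genes give a further comparison. They were 13 other inward rectifier (Kir) genes and 8 other ABCC transporter genes, and 19 of these 21 had a summit in the gene or within 50 kb, against 67.8% of protein-coding genes. All 4 KATP channel genes did too, so this measure does not separate them. None of the 21 had as many summits as Abcc8, either inside the gene (at most 6, in Kcnj6) or within 50 kb (at most 9). With peaks of a fold enrichment of at least 10 alone, 14 of the 21, Abcc8 and Kcnj11 had a summit within 50 kb and Abcc9 and Kcnj8 did not (45.6% of protein-coding genes). Single peaks at the 21 genes reached the reads of those at Abcc8. The peak with the most reads near Kcnj15, 12.3 kb from the gene, held 343 reads with a fold enrichment of 34.9. A peak 1.37 kb from Kcnj9 held 286 reads with a fold enrichment of 20.95, and it was also the highest within 50 kb of Kcnj10, 21.5 kb from that gene. A peak in Kcnj6 held 250 reads with a fold enrichment of 20.71. Kcnj6 and Kcnj9 encode subunits of potassium channels opened by G proteins. A peak in Abcc3, which encodes an organic anion transporter, held 199 reads with a fold enrichment of 23.77. Kcnj3 and Kcnj13 were the 2 genes with 0 summits within 50 kb.

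X-box sequences were common at the summits of both pairs, as they were in the whole list. A half-site lay within 100 bp of 9 of the 11 summits (81.8%, exact binomial interval 48.2 to 97.7%), 8 of 10 at the pancreatic pair and 1 of 1 at the vascular pair. Over all summits the share was 60.9%, and at positions 1 kb to the right of them 24.7%. The interval of the 11 includes the share of all summits. Within 50 bp the count was 7 of 11 (45.9% of all summits) and within 200 bp 10 of 11 (73.7%). The 2 without a half-site were those of intron 22 and of Kcnj11. An X-box with at most 1 mismatch lay within 100 bp of 6 of the 11 (54.5%, 23.4 to 83.3%), against 29.9% of all summits and 5.19% of the shifted positions, and at most 2 mismatches were found at 10 of the 11, against 82.5%. The exact X-box was found at 6.44% of all summits, at 0 of 10 in the pancreatic window and at the 1 summit in Abcc9, whose peak held the fewest reads of the 11 after that of the first summit in intron 6. A looser X-box, in which most positions need only be a purine or a pyrimidine, was found at 4 of the 11 and at 46.0% of all summits.

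**Figure D5:**
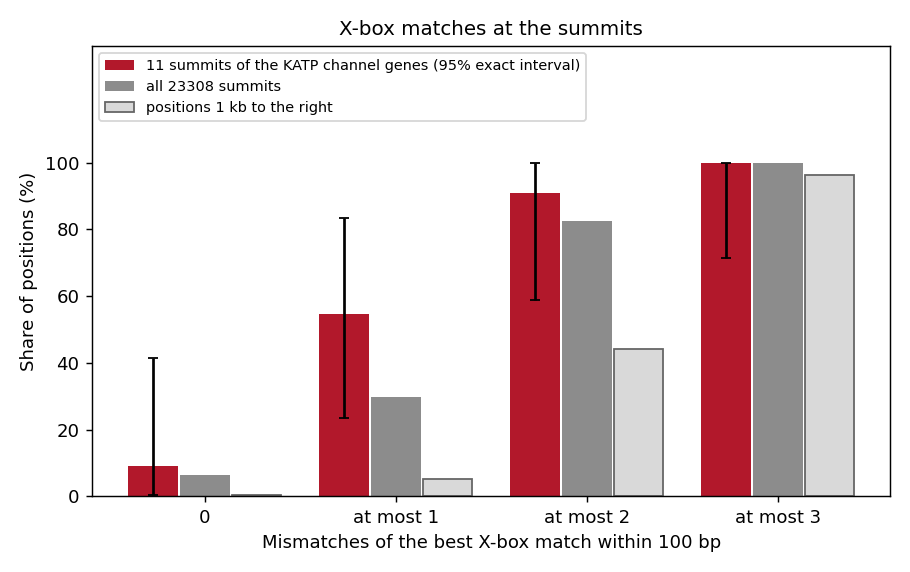
Share of positions with an X-box within 100 bp (vertical axis, percent) by the number of mismatches allowed (horizontal axis), for the 11 summits of the KATP channel genes (red, with 95% exact binomial intervals), all 23308 summits (dark grey) and positions 1 kb to the right of them (light grey). At most 1 mismatch is met by 54.5%, 29.9% and 5.19%, and at most 3 by 100%, 99.8% and 96.3%.

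The search reached 100 bp to either side of a summit, and distances at shifted positions were not computed. Matches with at most 2 mismatches were present at 44.1% of those positions and with at most 3 at 96.3%, so the distances of matches with 2 or 3 mismatches are a description only. Among the peaks of Abcc8, the closest match had 1 mismatch in introns 6, 10 and 28 and was 4 and 61 bp from the summits in intron 6, 19 bp from that in intron 10 and 0 bp from that in intron 28, around which there were 3 half-sites. In introns 3 and 22 it had 2 mismatches and was 2 and 0 bp away. In intron 16 it had 3 and 2 mismatches and was 0 and 24 bp away. At the peak upstream of Kcnj11 it had 1 mismatch and was 24 bp away, and at the peak in the flank it had 2 and was 1 bp away. At the peak of Abcc9 the exact X-box was 48 bp away, with 3 half-sites within 100 bp. Base composition was similar, with a median GC content of 55.7% in the 201 bp around the 11 summits and 54.2% around all summits, compared with 47.8% at the shifted positions. Of other motifs searched on both strands, CAGATG, the E-box of NeuroD factors, was found at 4 of the 11 summits (36.4%, 10.9 to 69.2%). The interval includes the 16.2% of all summits. These 4 were at the pancreatic pair, but the vascular pair had only 1 summit to search. CCAAT, bound by NF-Y, was found at 3 of the 11 (17.0% of all), TGANTCA, the AP-1 motif, at 1 (5.65%), TAATTA, a homeodomain motif, at 1 (2.04%), and TGTTTAC, bound by FOXA factors, at 0 (2.46%).

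X-box sequences were counted over the whole of both windows. Each window held 3 exact X-boxes, or 1.64 and 1.26 per 100 kb (pancreatic over vascular ratio 1.3, 95% interval 0.174 to 9.69), where chromosome 7 held 1.11 and chromosome 6 held 1.05. Half-sites numbered 287 and 325 (ratio per length 1.15, 0.974 to 1.35), and X-boxes with 1 mismatch 64 and 57 (ratio 1.46, 1.0 to 2.12). The density ratio of the summits was 13.0 (1.85 to 563), an interval that rests on 1 summit of the vascular window. The part of X-box density in this ratio was not tested. The pancreatic window was richer in G and C (51.1% against 43.3%), and the part of base composition in the difference between the windows was not tested. Of the 3 exact X-boxes of each window, 1 lay in a peak. The other exact X-boxes of the vascular window were 22.3 and 92.1 kb from a summit. Those nearest to a summit of the pancreatic window are shown with 14 bases on either side and the X-box in capitals, the first 937 bp from the summit of intron 10 and outside its peak, the second 471 bp from the summit in the flank of Kcnj11.
Abcc8 intron 10, beside the peak, chr7:53402205-53402247, minus strand: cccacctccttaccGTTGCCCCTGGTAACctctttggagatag
flank of Kcnj11, inside the peak, chr7:53340689-53340729, minus strand: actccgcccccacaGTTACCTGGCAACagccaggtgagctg
The third exact X-box of the pancreatic window was 17.2 kb from the nearest summit. The exact X-boxes of the pancreatic window were thus all more than 100 bp from a summit.

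The starts of the 4 genes were all rich in G and C. In the 300 bases before the start, GC content was 64.3% for Abcc8, 66.3% for Kcnj11, 66.7% for Abcc9 and 69.3% for Kcnj8. Of all starts, 18.6%, 14.3%, 13.7% and 9.47%, in the same order, had at least that GC content. The observed over expected ratio of CpG was higher at the pancreatic pair, 0.71 and 0.682, than at the vascular pair, 0.483 and 0.488. Ratios at least as high were found at 29.9% and 32.7% of all starts for the pancreatic pair. For the vascular pair the shares were 49.6% and 49.2%. Over all genes the median ratio was 0.71 for starts with a summit within 1 kb and 0.388 for starts without one. A half-site was found in 33.7% of starts, and among the 4 in that of Abcc8 (1 half-site), which had 0 summits within 1 kb. The start of Kcnj11, with a summit, held 0 half-sites in these bases. The looser X-box had 2 matches in the start of Abcc8, 2 in that of Kcnj11 and 0 in those of Abcc9 and Kcnj8. It was found in 34.4% of all starts.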

How the data were processed

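The ChIP-seq peaks of 1 3HA-Rfx6 library of Min6b1 cells were used. The control library, of which no peaks of its own were analysed here, entered through the peak calling of the authors. Per the submitters' processing notes, CASAVA 1.8.2, Bowtie and MACS 1.4.2 were used with mm9. According to the deposited file header, MACS applied a p-value cutoff of 1e-05, kept 1 read per position and estimated a fragment size of 234 bp. The deposited count is the number of 3HA-Rfx6 reads in a peak, without normalization. For the deposited fold enrichment, MACS divided the signal of a peak by what the control and the local surroundings would give, a linear ratio. For the deposited score, it multiplied log10 of that peak's p-value by -10. The deposited FDR, in percent, was obtained by swapping ChIP and control. The background rests on the control, which was the shallower library, and the effect of its depth on the fold enrichments was not tested.

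Summits were placed on NCBIM37 (mm9) with GENCODE M1, and gene starts are the most upstream annotated ones. The 4 genes, the families and the motifs were chosen with earlier results of these data known. Genes were named when they were members, reached into a window, were 1 of the 5 relatives with the most reads in their highest peak, or had at least as many summits as Abcc8 without being longer, of which at most 10 are named. Counts have exact Poisson intervals, shares have exact binomial (Clopper-Pearson) intervals and density ratios have intervals from the conditional binomial distribution, all at 95%. Backgrounds are shares of all protein-coding genes, all neighbouring pairs or all peaks. No p-value was computed, since there was 1 library per condition. Motifs were searched within 100 bp of each summit and of positions 1 kb to the right. The counting and the motif search were tested on simulated data. Alternatives were other flanks, stricter peak sets, placement of peaks by any base, other motif windows and patterns, and other distances to genes. Scripts ran in Python 3.11.15 (scipy 1.17.1, pandas 2.3.3, numpy 2.4.6, matplotlib 3.10.9).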

Additional observations from a re-analysis of the deposited data

How the results depend on the processing

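The summits of the pancreatic pair numbered 7 to 13 under the other flanks (0, 20 and 100 kb), with the 50% of peaks of the highest scores, with a fold enrichment of at least 10 and with peaks placed by any base. The vascular pair kept 1 summit under the other flanks and under placement by any base, and had 0 with the highest 50% of scores and with a fold enrichment of at least 10. With an FDR of at most 1%, which 10 of the 23308 peaks met, both pairs had 0 summits and no ratio could be computed. The FDR did not follow the strength of the peaks. It was 5.91% and 5.85% for the strong peaks of introns 28 and 10. For the weak first peak of intron 6 it was 1.82%, and for that of Abcc9 2.07%. The density ratio was 13.0 to 15.5 with the other flanks and with placement by any base. Where the vascular count was 0, 3 summits over the window were taken in place of 0. The density ratio was then 3.46 with the highest 50% of scores and 3.03 with a fold enrichment of at least 10. These values leave out counting error in the pancreatic count. No interval was computed for them, so they are not lower confidence limits. Ranked by reads, the top peak of the pancreatic pair was that of intron 28, with a fold enrichment of 31.1 in place of 38.8. The 9 summits with a half-site became 4 with the looser X-box and 1 with the exact X-box (the cause was not tested), and 11 with at most 3 mismatches, an alternative added after the data were seen, as was the background of neighbouring pairs. The 19 of 21 related genes with a summit became 10 with a distance of 10 kb from the start, 10 with the summit in the gene and 14 with a fold enrichment of at least 10. The share of all protein-coding genes fell as well, from 67.8% to 35.7%, 31.3% and 45.6%, in the same order. No paired analysis was possible because each condition had a single library, which also left no replicate to omit.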
